A study of Mus musculus with 8 samples.

Results

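The 39 Hox cluster genes are described here in kidneys of mice at postnatal day 3, in which a YAP allele was switched on in cells that express Slc12a3, the NaCl cotransporter gene of the distal convoluted tubule. The members are all genes of the deposited table whose symbol is Hox, a cluster letter from a to d and a number, 39 of 35976 listed genes. Of these, 33 passed the filter on low values and were tested, among 18156 genes tested in all. The YAP mutant genotype is labelled Slc12a3 Cre/+; C1 YAP/+ and the control genotype Slc12a3 Cre/+; C1 +/+, so both carry the Slc12a3 Cre allele. Each genotype has 4 libraries of poly(A) RNA, 2 from males and 2 from females. The labels do not explain C1, name no strain and leave unsaid whether the libraries of a group were made from different animals, so the p-values reflect the variation among these libraries, which may be technical. The study's title asks for effects of Yap1 activation inside and outside the distal nephron segments, and a whole-kidney library holds both.

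Hox genes encode transcription factors that bind DNA through a homeodomain and give cells their position along the body axis. They lie in 4 clusters that arose by duplication, so that genes of the same number in different clusters are paralogs, and within a cluster genes with low numbers are usually active nearer the head than genes with high numbers. In the kidney, the genes of paralog groups 10 and 11 are needed in the mouse for the metanephric mesenchyme and stroma that build the organ, and the Hoxb7 promoter is widely used to mark the ureteric bud and collecting duct. Hox proteins often bind DNA together with TALE homeodomain partners of the Pbx and Meis families, and the genes with low numbers respond to retinoic acid in the embryo.

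Hoxb2 and Hoxb9, described below, passed the test of genotype. Hoxb2 lies on chromosome 11 from 96351632 to 96354020 and Hoxb9 on chromosome 11 from 96271330 to 96276595, from the RefSeq annotation of GRCm38.p6. Both are protein coding. Their homeobox, the exonic stretch of 180 bases that encodes the homeodomain, is printed with that of a paralog as an example of how far paralogs differ in the stretch that marks the family. The bases were read from GENCODE M21 transcripts of GRCm38, 5′ to 3′ on the coding strand, and located by the codons of the recognition helix. Capitals mark bases that differ from Hoxb2 or Hoxb9, each given in lower case above its paralog.
Hoxb2: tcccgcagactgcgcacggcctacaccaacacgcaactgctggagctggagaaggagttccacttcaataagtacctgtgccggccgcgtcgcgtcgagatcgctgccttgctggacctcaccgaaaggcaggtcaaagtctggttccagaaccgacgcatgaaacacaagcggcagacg
Hoxa2: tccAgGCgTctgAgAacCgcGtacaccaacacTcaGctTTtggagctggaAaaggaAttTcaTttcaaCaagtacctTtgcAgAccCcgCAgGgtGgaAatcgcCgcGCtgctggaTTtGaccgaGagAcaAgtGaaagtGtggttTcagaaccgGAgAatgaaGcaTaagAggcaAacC
Hoxb9: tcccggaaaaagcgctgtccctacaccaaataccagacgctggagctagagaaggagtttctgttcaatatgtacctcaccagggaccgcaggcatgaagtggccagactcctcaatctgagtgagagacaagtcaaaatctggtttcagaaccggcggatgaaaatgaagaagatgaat
Hoxc9: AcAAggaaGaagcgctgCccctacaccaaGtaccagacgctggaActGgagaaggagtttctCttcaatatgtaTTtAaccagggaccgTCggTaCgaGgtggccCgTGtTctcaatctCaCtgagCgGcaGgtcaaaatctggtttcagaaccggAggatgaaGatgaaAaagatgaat

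Hoxa2 differed from Hoxb2 at 46 of the 180 bases, and Hoxc9 from Hoxb9 at 29. Other Hox genes were somewhat closer, with 40 differing bases between Hoxd3 and Hoxb2 and 28 between Hoxd9 and Hoxb9. A homeobox was found in a transcript of each of the 39 genes. Identity over it had a median of 80.6% among the 42 pairs of the same paralog group (67.2% to 93.9%) and of 61.7% among the 172 pairs of the same cluster. Of all 50-base windows of the transcripts of Hoxb2, 0.0% were also found in another Hox gene, and of those of Hoxb9 0.0389% were, in Hoxc9.

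Total reads, in units of 1e6, ran from 81.3 to 87.1 in the mutant and from 78.2 to 85.2 in the control libraries of replicate number 1, and from 23.5 to 25.2 in the mutant and from 22.8 to 23.5 in the control libraries of replicate number 2. Replicate number 1 is therefore called deep and number 2 shallow, and each depth holds 1 library of every group. Levels are scaled RPKM, that is reads per kilobase of a gene and per 1e6 reads of the library, with the libraries scaled to each other. Proximal tubule markers were lower in mutants in 9 of 9 genes, with summed levels of 223 to 318 in mutant and 1525 to 1720 in control libraries. Collecting duct markers were lower in 9 of 12 (sums of 221 to 415 in mutants and 522 to 645 in controls), and distal convoluted tubule markers were lower in 6 of 8 and higher in 1 (23.2 to 35.6 in mutants and 81.7 to 105.5 in controls), Slc12a3 itself among the lower. Of 8 macrophage and blood markers 6 were higher, among them Csf1r and Cd68, and 1, the blood marker Hba-a1, was lower. The summed levels of these 8 overlapped between the genotypes, at 994 to 1333 in mutant and 1010 to 1839 in control libraries. The higher count was 5 when any library other than the deep male control was left out. Also lower were 1 of 6 nephron progenitor, 3 of 10 stromal, 3 of 6 endothelial and 3 of 5 podocyte markers. The stromal count was 1 without the deep male mutant, the deep female mutant or the shallow female control library. Over all tested genes 13.1% were lower and 13.1% higher, so the nephron progenitor count was near that share. Of 12 non-kidney tissue markers 7 were tested, with Acta1 higher and Chga lower and 3 at 0 reads. The summed levels of this list were 5.72 to 44.1 in mutant and 2.90 to 4.18 in control libraries, without overlap. In such bulk samples fewer cells of a type and less RNA per cell cannot be told apart. The part of these marker differences in any Hox result was not tested.

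Control kidneys at postnatal day 3 expressed Hox genes mainly from the middle and 5′ parts of the clusters. The summed level of the 39 genes was 498 ± 40.6 scaled RPKM in mutants and 474 ± 39.4 in controls (SD, n = 4 libraries each). In mutants, paralog groups 1 to 4 made up 12.6% ± 0.49 of this sum, groups 5 to 8 42.6% ± 0.927, groups 9 to 11 44.8% ± 1.31 and groups 12 and 13 0.0508% ± 0.0159. In controls the shares were 10.7% ± 0.42 for groups 1 to 4, 45.0% ± 0.715 for groups 5 to 8, 44.3% ± 1.01 for groups 9 to 11 and 0.0663% ± 0.0127 for groups 12 and 13 (SD, n = 4). Nearly the whole Hox signal of both genotypes thus came from paralog groups 1 to 11.

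The order of the levels in controls was led by Hoxd8 with 73.9 ± 4.86 scaled RPKM, Hoxb7 with 59.3 ± 9.9 and Hoxd9 with 51.6 ± 3.51 (SD, n = 4), and the ranges of neighbours among these overlapped. Hoxa10 followed with 34.2 ± 1.92, below all control values of Hoxd9 and above all of the next genes. Hoxb8, Hoxb6, Hoxb9, Hoxb2, Hoxa11 and Hoxc10 averaged 26.1 to 21.3, and the ranges of neighbours in this order overlapped, although all control values of Hoxb8 and Hoxb9 lay above all of Hoxc10. Hoxd11, Hoxd10 and Hoxa9 lay at 16.3 to 13.8 and, again with overlapping neighbours, Hoxa7, Hoxc9, Hoxa5, Hoxb4, Hoxb5 and Hoxb3 at 8.29 to 5.63. The other members were under 3 scaled RPKM. Among them Hoxa4, Hoxc8, Hoxd3, Hoxa6, Hoxa2, Hoxd4 and Hoxc4 averaged 2.74 to 1.67, and Hoxa3, Hoxc11, Hoxc5 and Hoxc6 1.23 to 0.938. Hoxd1 was at 0.624 and Hoxd12 at 0.242. This order, and the shares by paralog group and cluster, rest on the gene lengths of the deposited table. Some of these differ from the exon bases in GENCODE M21, at 10979 against 2408 for Hoxc6 and 1837 against 3488 for Hoxb2. Hoxc6 had 4616 reads over the 8 libraries, more than Hoxc8 with 2945, but a lower level.

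Members of paralog groups 12 and 13, which pattern the hind end of the body, the digits, the genital tubercle and hair, were low. Hoxd12 passed the filter, with 242 reads over the 8 libraries. Of the 6 members that missed the filter, Hoxd13 had 32 reads in mutants and 22 in controls, Hoxc13 6 in mutants and 5 in controls, and Hoxa13 and Hoxc12 0 in mutants and 1 in controls each. Hoxb13 had 0 reads in all 8 libraries, and a count of 0 in a total of 427 (again in units of 1e6 reads) allows a level of up to 0.00535 RPKM, for counting error only. Hoxb1, which marks a hindbrain segment of the embryo, was the remaining untested member. It had 0.0686 and 0.0565 scaled RPKM in the deep and 0.0774 and 0.0539 in the shallow mutant libraries (male, then female), against 0.0385 and 0.0295 in the deep and 0.0384 and 0 in the shallow control libraries. The libraries of the genotypes did not overlap, but the values rest on 30 reads in mutants and 14 in controls, and Hoxb1 was not tested.

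**Figure D1:**
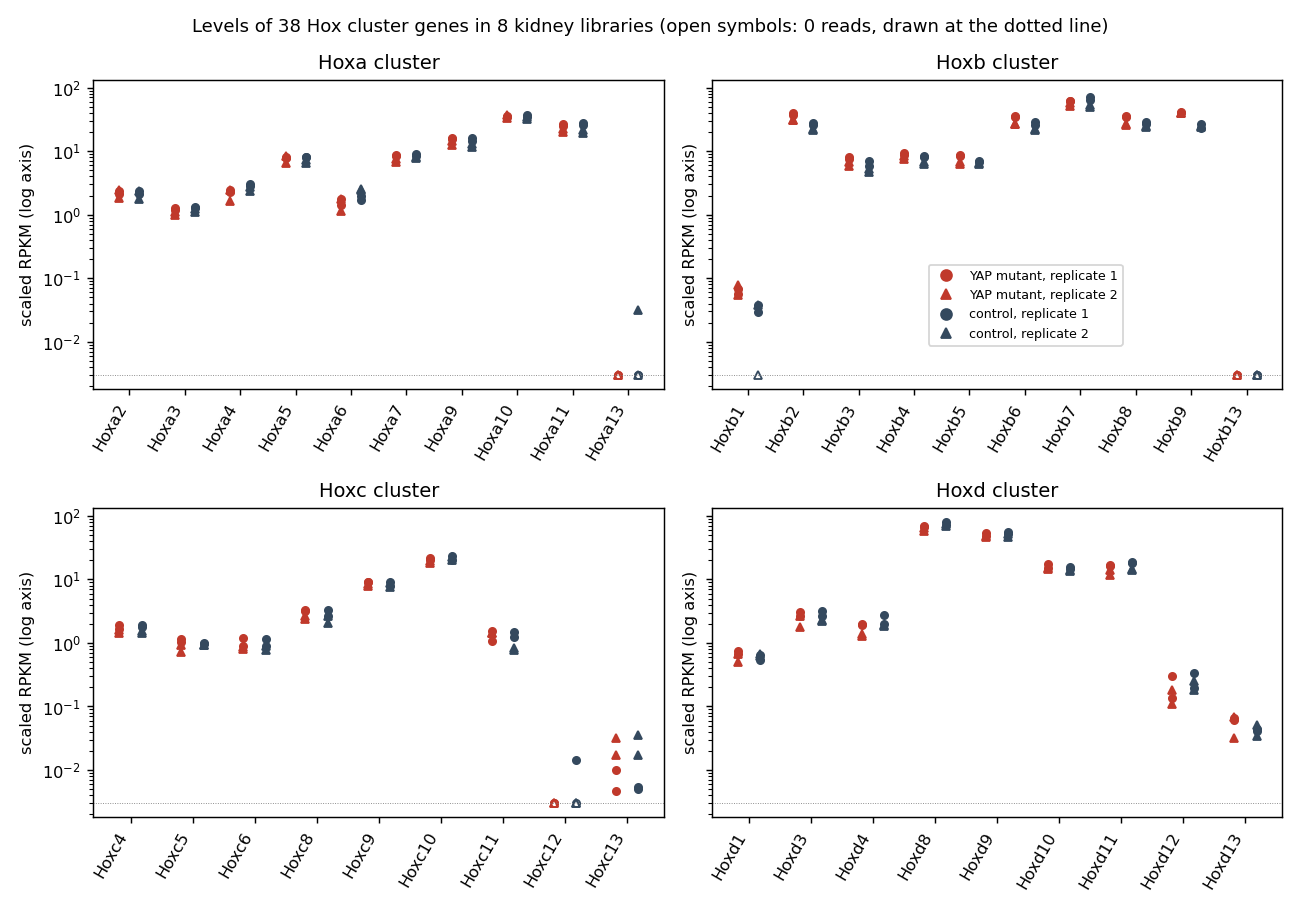
Scaled RPKM of 38 Hox genes on a log axis, by cluster and gene number, with 1 symbol per library, mutants in red left of controls in blue, circles for the deep and triangles for the shallow libraries. Levels span from 0 reads, drawn as open symbols on the dotted line, to 79.9 for Hoxd8 in a control library, and the genotypes do not overlap in Hoxb2 and Hoxb9.

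By cluster, Hoxb gave the largest share of the signal. Its 10 genes summed to 216 ± 22.1 scaled RPKM in mutants and 179 ± 19.7 in controls, or 43.4% ± 1.08 of all Hox signal in mutants and 37.7% ± 1.06 in controls (SD, n = 4). The 9 Hoxd genes summed to 149 ± 11.1 in mutants and 162 ± 11.3 in controls, or 30.0% ± 1.20 of all Hox signal in mutants and 34.2% ± 0.968 in controls. The 11 Hoxa genes summed to 95.8 ± 7.28 in mutants and 95.8 ± 8.72 in controls, and the 9 Hoxc genes to 36.5 ± 2.88 in mutants and 36.9 ± 3.13 in controls. With both depths pooled, the ranges of the sums overlapped between the genotypes in Hoxa, Hoxb, Hoxc and Hoxd. Within a depth the Hoxb sums did not overlap, at 236 and 235 in the deep and 193 and 202 in the shallow mutant libraries (male, then female). The control libraries had 200 and 191 (deep) and 165 and 159 (shallow). Within either depth the Hoxd sums did not overlap as well, with mutants lower. Differences in the sums and shares were not tested.

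The highest gene of each cluster did not pass the test of genotype over all libraries. Hoxd8 had 67.4 and 69.0 scaled RPKM in the deep and 64.6 and 58.1 in the shallow mutant libraries (male, then female), against 79.9 and 72.6 in the deep and 74.8 and 68.2 in the shallow control libraries. Over both depths the highest mutant value lay just above the lowest control value, while within each depth the mutant values lay below the control values. The log2 fold change was -0.19 (SE 0.08, limma, adjusted p = 0.114), with an adjusted p of 0.0497 once replicate number was a term of the fit. Hoxb7, known for its activity in the ureteric bud, had 60.6 and 61.7 in the deep and 50.5 and 56.5 in the shallow mutant libraries, against 71.7 and 62.8 in the deep and 52.4 and 50.4 in the shallow control libraries. Here the deep and shallow control libraries lay further apart than the genotypes, and the log2 fold change was -0.04 (SE 0.13, adjusted p = 0.862). Collecting duct markers were lower in the same mutant libraries, as given above.

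Hoxa10 and Hoxc10 belong to a paralog group that acts in the renal stroma of the mouse. Hoxa10 had 35.3 and 33.9 scaled RPKM in the deep and 32.7 and 36.7 in the shallow mutant libraries, against 36.4 and 34.4 in the deep and 34.4 and 31.7 in the shallow control libraries. These overlap fully, with a log2 fold change of 0.02 (95% interval -0.15 to 0.19). Hoxc10 had 20.5 and 21.9 in the deep and 18 and 19.7 in the shallow mutant libraries, against 19.9 and 23 in the deep and 20.05 and 22.3 in the shallow control libraries. Its log2 fold change was -0.09 (95% interval -0.25 to 0.08), again with overlapping groups.

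Across genotypes, 3 of the 33 tested Hox genes were higher in mutants and 0 were lower at an adjusted p below 0.05 (limma, Benjamini-Hochberg over the 18156 genes tested). Over all tested genes, 13.1% were higher and 13.1% were lower. The 3 of 33 are 9.09% of the tested members, under the share called in the higher direction among all genes. Voom on recovered reads gave the same counts of 3 higher and 0 lower, and 5 members had an unadjusted p below 0.05 in the first test. With replicate number, and so depth, as a further term of the limma fit, 5 Hox genes were higher and 3 lower, against 15% higher and 15.1% lower of all tested genes. Hoxb2 and Hoxb9 are described below. The same 3 genes were the tested members whose mutant libraries all lay above all control libraries, and 0 members had all mutant libraries below, against 15.6% of all tested genes without overlap in the higher and 14.8% in the lower direction. The median log2 fold change of the tested members was 0.02, against 0.00421 over all tested genes, and the median of its size without sign was 0.1 in Hox genes and 0.2 over all tested genes.

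**Figure D2:**
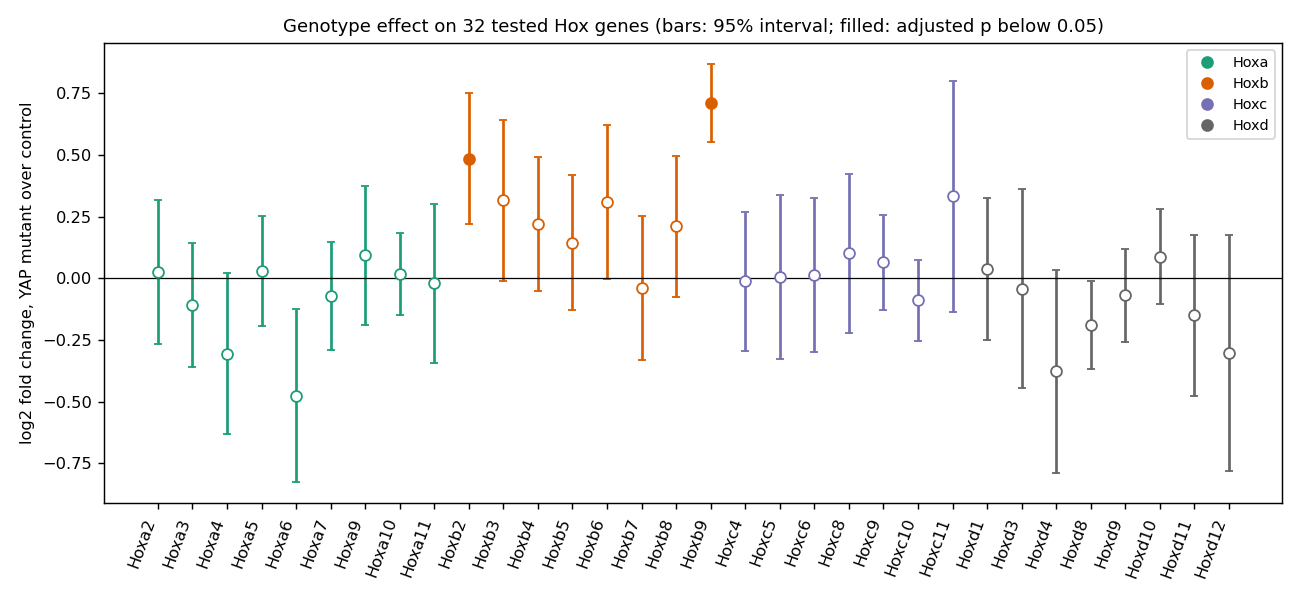
Log2 fold change of mutants over controls for 32 tested Hox genes, in cluster order, with the 95% interval of limma's fit as bars. Filled points passed the adjusted threshold, Hoxb2 at 0.49 and Hoxb9 at 0.71, while the other 30 drawn lie between -0.48 and 0.33.

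Hoxb9, which patterns the thoracic ribs together with its paralogs in the mouse, is among the higher Hox genes of the kidney. It had 41.7 and 40.2 scaled RPKM in the deep and 40.2 and 39.2 in the shallow mutant libraries, against 23.2 and 26.5 in the deep and 25.1 and 23.6 in the shallow control libraries. The genotypes were far apart relative to the spread within each, at 40.3 ± 1.02 in mutants and 24.6 ± 1.48 in controls (SD, n = 4). The log2 fold change was 0.71 (SE 0.07), a fold of 1.64 with a 95% interval of 1.47 to 1.83 (limma, adjusted p = 0.000138). The deep libraries alone gave 0.72 (adjusted p = 0.00791), the shallow ones 0.7 (adjusted p = 0.00158), and the call held when any of the 8 libraries was left out.

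Hoxb2, a hindbrain gene that Hoxb1 and Egr2 control in the embryo, rose by less. It had 39.1 and 36.7 scaled RPKM in the deep and 30.5 and 30.9 in the shallow mutant libraries, against 27.9 and 25.7 in the deep and 22.6 and 21.6 in the shallow control libraries. The groups did not overlap, although the shallow libraries were lower than the deep ones in both genotypes. The log2 fold change was 0.49 (SE 0.12), a fold of 1.4 with a 95% interval of 1.17 to 1.68 (limma, adjusted p = 0.0153). Within the deep libraries it was 0.5 (adjusted p = 0.0209) and within the shallow ones 0.47 (adjusted p = 0.0254). The call was lost without the deep male mutant library (adjusted p = 0.0539), without the deep female mutant library (adjusted p = 0.0502) or without the shallow male control library (adjusted p = 0.0521).

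**Figure D3:**
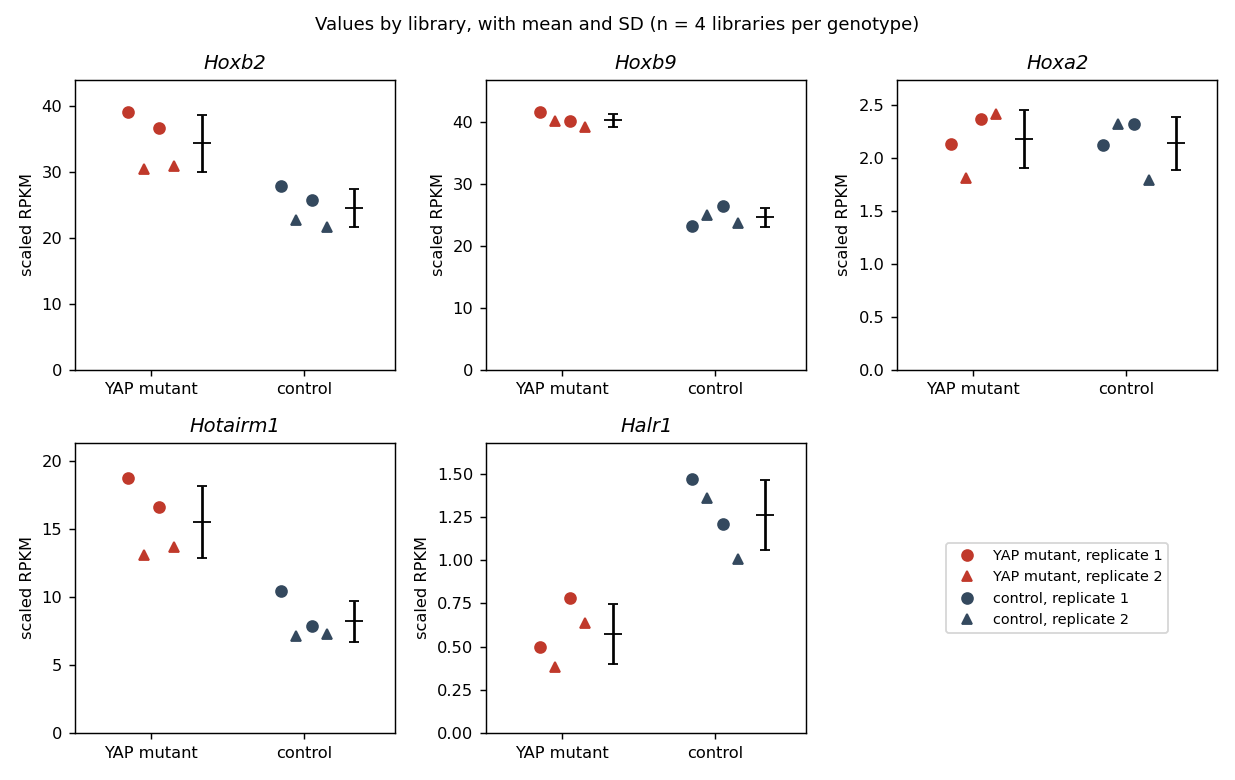
Scaled RPKM by library for Hoxb2, Hoxb9, Hoxa2 for comparison, and the noncoding genes Hotairm1 and Halr1, with mutants left of controls, circles for deep and triangles for shallow libraries, and the mean and SD over 4 libraries beside each group. The genotypes do not overlap in the 4 genes that passed the test, with Halr1 lower in mutants, and overlap in Hoxa2, which averaged 2.18 in mutants and 2.14 in controls.

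Paralogs of Hoxb2 and Hoxb9 did not pass the test, and their values are set beside them here. In group 2, Hoxa2 had a log2 fold change of 0.03 (95% interval -0.27 to 0.32), and the interval of Hoxb2 ran from 0.22 to 0.75. In group 9, Hoxa9 changed by 0.09 (95% interval -0.19 to 0.37), Hoxc9 by 0.07 (-0.13 to 0.26) and Hoxd9 by -0.07 (-0.26 to 0.12), all below the interval of Hoxb9, 0.55 to 0.87. Differences between paralogs in the genotype effect were not tested.

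The other members of the Hoxb cluster mostly had positive values that missed the threshold over all libraries. Of its 8 tested genes 7 had a log2 fold change above 0, with a median of 0.26. Hoxb3, a gene of the hindbrain and the pharyngeal organs, averaged 7 ± 0.881 scaled RPKM in mutants and 5.63 ± 0.985 in controls, with a log2 fold change of 0.32 (limma, adjusted p = 0.147), and passed without the deep male control library (adjusted p = 0.038). Hoxb6 averaged 30.7 ± 4.69 in mutants and 24.7 ± 3.58 in controls (SD, n = 4), with a log2 fold change of 0.31 (adjusted p = 0.141). Both have libraries that overlap between the genotypes when both depths are pooled. Within a depth the genotypes did not overlap: Hoxb6 had 35.3 and 34.2 in the deep and 26.7 and 26.6 in the shallow mutant libraries, against 29.2 and 25.9 in the deep and 22.5 and 21.2 in the shallow control libraries. Hoxb3 had 7.44 and 7.95 in the deep and 5.94 and 6.67 in the shallow mutant libraries, against 6.92 and 5.79 in the deep and 5.2 and 4.61 in the shallow control libraries. With replicate number as a term of the fit both passed, Hoxb6 at an adjusted p of 0.00538 and Hoxb3 at 0.0309. Hoxb4 and Hoxb8 did not overlap within either depth as well, yet missed the threshold with that term (limma, adjusted p = 0.0638 and 0.0691). This trait was not particular to Hoxb or to the higher direction. Hoxd8 and Hoxd4 were lower in mutants without overlap within either depth, and both passed with that term (limma, adjusted p = 0.0497 and 0.0447). The share of all tested genes without overlap within a depth was not counted. Over all libraries the log2 fold change of Hoxb4 was 0.22, of Hoxb8 0.21, of Hoxb5 0.14 and of Hoxb7 -0.04. The 3 other clusters had medians near 0, at -0.000518 for 10 tested Hoxa genes, 0.01 for 7 Hoxc genes and -0.11 for 8 Hoxd genes.

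Hoxa6, a gene of the trunk axis at a control mean of 2.16 scaled RPKM, had the lowest fold change of the family. Its scaled RPKM was 1.44 and 1.77 in the deep and 1.15 and 1.74 in the shallow mutant libraries, against 1.69 and 1.96 in the deep and 2.46 and 2.52 in the shallow control libraries. Mutant and control values overlapped in the deep libraries only. The log2 fold change of -0.48 (SE 0.15) missed the threshold narrowly (limma, adjusted p = 0.0527), from 237 reads in mutants and 286 in controls. It was -0.18 in the deep libraries (adjusted p = 0.458) and -0.77 in the shallow ones (adjusted p = 0.0235), and it passed without the deep male control library (adjusted p = 0.0411) or the deep female control library (adjusted p = 0.0394). With replicate number as a term of the fit Hoxa6 passed (adjusted p = 0.0488), as did Hoxd4 (0.0447). Hoxa4 had -0.31 (adjusted p = 0.164), Hoxd4 -0.38 (adjusted p = 0.17 without that term) and Hoxd12 -0.3 (adjusted p = 0.347).

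For the 30 tested members that did not pass, the intervals set limits on what could have been missed. In 23 of 30 the 95% interval of the fold lay within 1.5-fold in either direction, and in 30 of 30 within 2-fold. Over all tested genes, those that passed included, the shares were 59.2% and 83.8%. Of all 33 tested members, 31 lay within 2-fold by voom and 29 in the shallow libraries alone. The limits are therefore those of the main fit, whose pseudocount understates the fold changes of low genes. Hoxa11 and Hoxd11, which act together in the formation of the mouse kidney, had log2 fold changes of -0.02 (95% interval -0.34 to 0.30) and -0.15 (-0.48 to 0.18). Hoxd10 had 0.09 (-0.10 to 0.28), and Hoxc11 0.33 (-0.14 to 0.80) from 264 reads in mutants and 236 in controls. For Hoxc11 the deep libraries gave -0.08 and the shallow ones 0.74, where it passed (adjusted p = 0.0482). The remaining values of Hoxc4, Hoxc5, Hoxc6 and Hoxc8 lay between -0.01 and 0.10, and those of Hoxa3, Hoxa5, Hoxa7 and Hoxd3 between -0.11 and 0.03.

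The level of most Hox genes was higher in the deep than in the shallow libraries of both genotypes. The ratio of the deep to the shallow mean was above 1 in 31 of 33 members in mutants and in 31 of 33 in controls, with medians of 1.19 in mutants and 1.16 in controls. Over all tested genes the medians were 0.999 in mutants and 1.01 in controls. What else differed between the libraries of number 1 and number 2 is not given in the labels, and its part in these levels was not tested. Since each depth holds 1 library of every group, the genotype effect was also read within each depth. Among the members it is given above for Hoxb2, Hoxb9, Hoxa6 and Hoxc11, and it is drawn below for 32 tested members. Hoxb8 and Hoxb5 also differed between the depths, with log2 fold changes of 0.36 and 0.29 in the deep and 0.07 and -0.000176 in the shallow libraries.

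**Figure D4:**
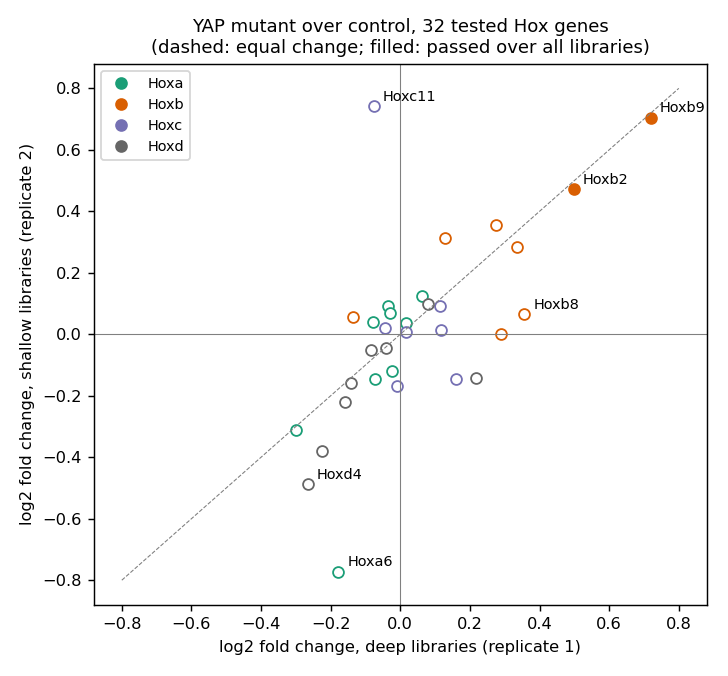
Log2 fold change of mutants over controls for 32 tested Hox genes in the 4 deep libraries on the x axis and in the 4 shallow libraries on the y axis, coloured by cluster, with the dashed line at equal values. Hoxb2 and Hoxb9, drawn filled, lie near the line, while Hoxa6 at -0.18 deep and -0.77 shallow and Hoxc11 at -0.08 deep and 0.74 shallow lie away from it.

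The effect was also read within each sex. In males 2 Hox genes were higher and 0 lower, against 7.83% higher and 7.47% lower of all tested genes, and in females 2 were higher and 0 lower, against 6.02% higher and 5.78% lower. Hoxb9 was among them in both sexes. Its log2 fold change was 0.76 in males (adjusted p = 0.0028) and 0.66 in females (adjusted p = 0.00612), by limma. Hoxb2 was at 0.46 in males (adjusted p = 0.133) and 0.51 in females (adjusted p = 0.109). The interaction of genotype and sex passed for 0 Hox genes and for 0.0% of all genes, where 0 Hox genes and 553 of all genes had an unadjusted p below 0.05 (limma).

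At the Hoxa cluster, 2 noncoding genes passed the test. The region was searched for all genes within 100 kb of the outermost Hox genes of each cluster, a choice made after values were seen. Of 39 such genes other than Hox genes, 21 were tested, 3 were higher and 2 lower, against 13.1% higher and 13.1% lower of all tested genes. Hotairm1, a noncoding RNA transcribed beside Hoxa2 against the direction of the Hoxa genes and studied early in human myeloid cells, spans chromosome 6 from 52158524 to 52162020. It had 18.8 and 16.6 scaled RPKM in the deep and 13.1 and 13.7 in the shallow mutant libraries, against 10.5 and 7.87 in the deep and 7.14 and 7.30 in the shallow control libraries. The groups did not overlap, and the log2 fold change was 0.92 (SE 0.15, limma, adjusted p = 0.00268), and it was as large at either depth (deep 0.95, shallow 0.88).

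Halr1, which lies outside the Hoxa cluster on the side of Hoxa2 (chromosome 6 from 52102949 to 52113684), was lower. Halr1 is a noncoding RNA that has been reported in mouse embryonic stem cells to restrain the Hoxa genes. It had 0.499 and 0.779 scaled RPKM in the deep and 0.381 and 0.636 in the shallow mutant libraries, against 1.47 and 1.21 in the deep and 1.36 and 1.00 in the shallow control libraries. All mutant libraries were below all control libraries, with a log2 fold change of -1.04 (SE 0.20, limma, adjusted p = 0.00594). Hoxa2, a Hox gene next to Hotairm1, was at 0.03 on the same scale.

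**Figure D5:**
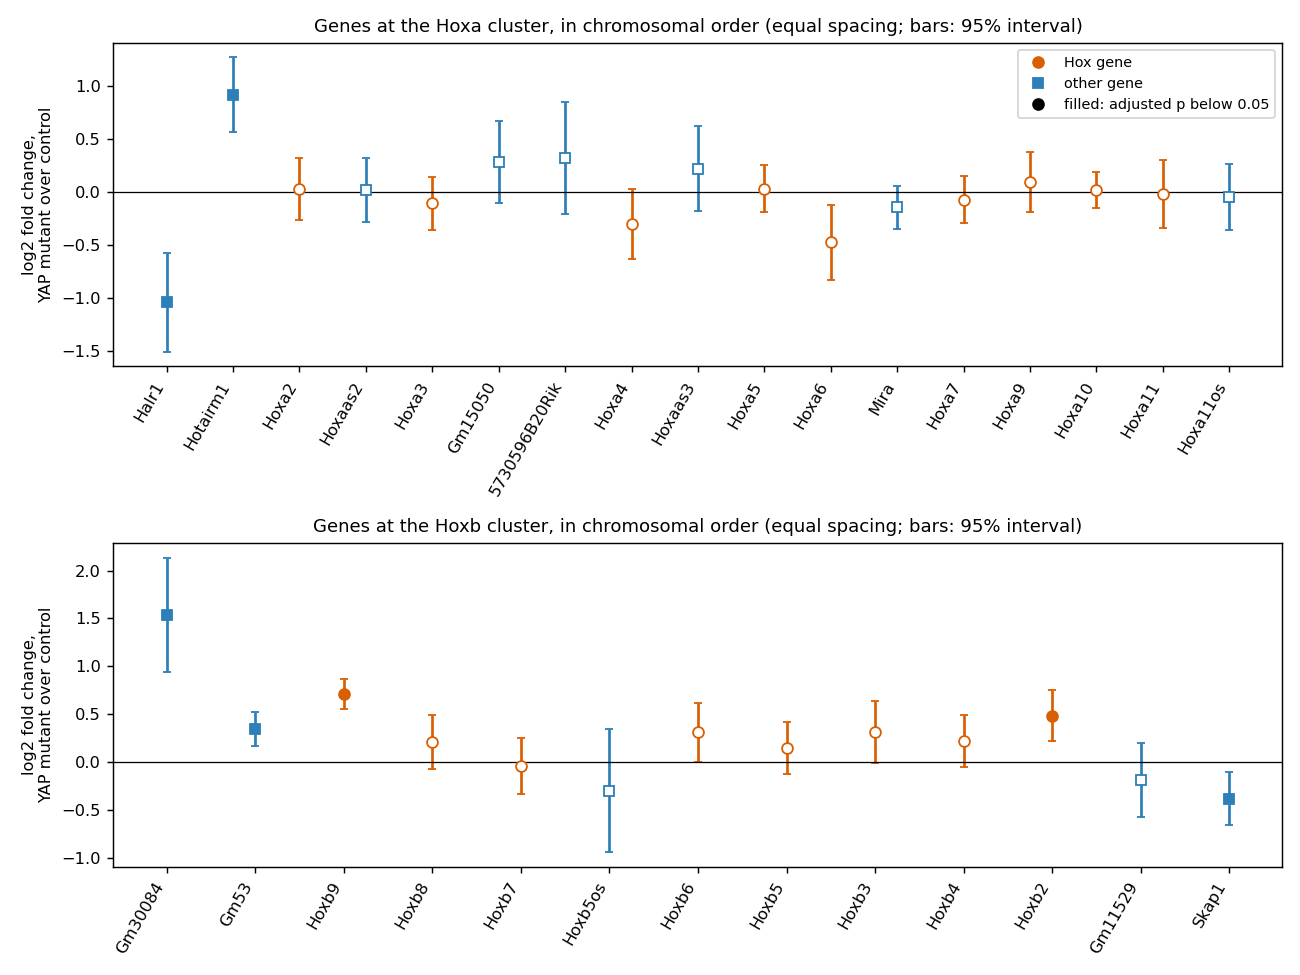
Log2 fold change of mutants over controls, with 95% intervals, for tested genes drawn in and within 100 kb of the Hoxa cluster (upper) and the Hoxb cluster (lower), in chromosomal order at equal spacing, Hox genes in orange and other genes in blue, filled where the adjusted p was below 0.05. Halr1 at -1.04 and Hotairm1 at 0.92 stand apart in the Hoxa row, and the filled points above 0 in the Hoxb row are Gm30084 at 1.54, Hoxb9 at 0.71, Hoxb2 at 0.49 and Gm53 at 0.34.

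At the Hoxb cluster, Gm53 and Gm30084, to which no role is given here and which lie beyond Hoxb9, were higher. Gm53 (chromosome 11 from 96251660 to 96264484) averaged 11.1 ± 0.988 scaled RPKM in mutants and 8.67 ± 0.0371 in controls (SD, n = 4), with a log2 fold change of 0.34 (SE 0.08, limma, adjusted p = 0.0116). It passed in the deep libraries alone (0.43, adjusted p = 0.0443) and not in the shallow ones (0.26, adjusted p = 0.273). Gm30084 (chromosome 11 from 96136357 to 96141175) averaged 1.37 ± 0.331 in mutants and 0.419 ± 0.172 in controls, with a log2 fold change of 1.54 (SE 0.26, adjusted p = 0.00296). Skap1, an adaptor of T cell signalling at the other end of the cluster, was at -0.38 (adjusted p = 0.0497), with libraries that overlap, and its call held only without the shallow female mutant library and was lost without any of the 7 others (adjusted p up to 0.114).

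Reads of overlapping genes limit the values of some members, since the strand setting of the authors' counting is not given in the sources used here. In the GENCODE M21 annotation, 27.3% of the exon bases of Hoxb2 overlap Hoxb3os on the opposite strand, and of those of Hoxb3 52.9% do. Hoxa11 shares 35.0% of its exon bases with Hoxa11os, and Hoxd3 and Hoxd4 share 62.3% and 52.3% of theirs with other genes on the same strand, so the values of these are uncertain in part. Hoxb9 shares 0.0% on either strand. Antisense genes such as Hotairm1 carry the same uncertainty. All these shares describe the GENCODE M21 exons and not the gene models behind the deposited values. The lengths differ, at 4251 bases in GENCODE M21 against 8699 in the deposited table for Hoxb3 and 4191 against 2902 for Hoxd3.

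Further lists give the partners and regulators of Hox genes, all read from the same fit, in which 26.2% of all tested genes passed in either direction. Of 11 TALE cofactors 2 were higher and 0 lower, or 18.2%, with a median log2 fold change of 0.05. Pbx3, which binds DNA with Hox proteins, averaged 14.3 ± 1.17 scaled RPKM in mutants and 8.95 ± 0.594 in controls (SD, n = 4; log2 fold change 0.67, SE 0.08, limma, adjusted p = 0.000576). Tgif1, a TALE repressor that also limits TGF-beta signalling, averaged 10.8 ± 0.349 in mutants and 5.86 ± 0.0977 in controls (0.88, SE 0.06, adjusted p = 3.14e-05). The 9 others did not pass, Meis1 among them at 0.05.

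Of 20 chromatin regulators of Hox loci 2 were higher and 0 lower, against 26.2% called over all tested genes, with a median log2 fold change of 0.05. These were Cbx7, a reader in Polycomb repressive complex 1, at 1.30 ± 0.202 scaled RPKM in mutants and 0.693 ± 0.153 in controls (SD, n = 4; 0.84, limma, adjusted p = 0.00555), and Ezh1, a histone H3 lysine 27 methyltransferase, at 7.77 ± 0.755 in mutants and 6.32 ± 0.188 in controls (0.29, adjusted p = 0.0402). The call of Ezh1 held only without the shallow female mutant library and was lost without any of the 7 others (adjusted p up to 0.118). The other 18 did not pass, trithorax and Polycomb members alike.

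The list of upstream inputs to Hox genes, which holds retinoic acid enzymes and receptors and other activators, had 7 members past the threshold. Of 16 genes 14 were tested, 1 was higher and 6 were lower (7 of 14, against 26.2% over all tested genes), with a median log2 fold change of -0.03, and Cdx2 and Cdx4 had 0 reads. With single libraries left out, 0 to 2 of the list were higher and 2 to 5 lower. Aldh1a3, which makes retinoic acid, had 10.4 and 12.0 scaled RPKM in the deep and 11.8 and 12.0 in the shallow mutant libraries, against 33.9 and 36.7 in the deep and 26.0 and 35.5 in the shallow control libraries. This was the largest fall of the list, at -1.50 (SE 0.10, limma, adjusted p = 1.66e-05). Rarb, a retinoic acid receptor that is itself induced by retinoic acid, averaged 8.35 ± 0.274 in mutants and 11.5 ± 0.31 in controls (-0.46, adjusted p = 0.00106).

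Enzymes that break down retinoic acid moved in opposite directions. Cyp26a1 averaged 1.46 ± 0.239 scaled RPKM in mutants and 1.00 ± 0.146 in controls (SD, n = 4; 0.50, limma, adjusted p = 0.036). Cyp26b1 averaged 0.968 ± 0.311 in mutants and 2.01 ± 0.701 in controls (-0.97, adjusted p = 0.0329), with -0.26 in the deep libraries and -1.68 in the shallow ones. In both genes the libraries of the genotypes overlapped. Rxra was at -0.30 (adjusted p = 0.0487) and Gdf11, a signal that shifts Hox activity towards the tail, at -0.31 (adjusted p = 0.0495). When single libraries were left out, the calls of Rxra and Gdf11 held only without the deep male control library, with adjusted p up to 0.14 for Rxra and 0.143 for Gdf11. The call of Cyp26a1 held without the shallow female mutant or the deep female control library (adjusted p up to 0.107 otherwise). That of Cyp26b1 held without the deep female mutant or either deep control library (adjusted p up to 0.096 otherwise).

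Among 11 kidney genes known in mice to act downstream of the Hox10 and Hox11 groups, 0 were higher and 2 lower (18.2% against 26.2% over all tested genes), with a median log2 fold change of -0.35. Itga8, an integrin of the nephron-forming mesenchyme, averaged 10.3 ± 1.25 scaled RPKM in mutants and 15.8 ± 2.17 in controls (SD, n = 4; -0.60, SE 0.12, limma, adjusted p = 0.0061). Wnt11, a signal of the ureteric tips, averaged 9.92 ± 1.67 in mutants and 14.4 ± 2.39 in controls (-0.53, SE 0.15, adjusted p = 0.0332), a call that held without the deep female mutant or the shallow female control library and was lost without any of the 6 others (adjusted p up to 0.0904). Six2 was at -0.35 (adjusted p = 0.277) and Gdnf at -0.39 (adjusted p = 0.101). Summed nephron progenitor markers ran from 17.9 to 19.3 in mutant and from 25.6 to 38.2 in control libraries, and their part in these values was not tested. None of the 6 tested members of groups 10 and 11 passed in the same libraries, with log2 fold changes from -0.15 to 0.33.

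Genes that flank the clusters were counted as well. Among 13 listed neighbours 10 were tested, 2 were higher and 2 lower (4 of 10, against 26.2% over all tested genes). Skap2, an adaptor protein gene beyond Halr1 at the Hoxa cluster, averaged 33.3 ± 2.03 scaled RPKM in mutants and 21.7 ± 1.08 in controls (SD, n = 4; 0.61, limma, adjusted p = 0.000448). Snx10, a sorting nexin, was at 0.35 (adjusted p = 0.0103). Hibadh, a mitochondrial enzyme of valine breakdown on the far side of Evx1, averaged 83.6 ± 3.29 in mutants and 125 ± 12.0 in controls (-0.57, adjusted p = 0.00176). Among 20 listed noncoding genes of the clusters 10 were tested, and Hotairm1 and Gm53, described above, were the 2 that were higher, with 0 lower (2 of 10, against 26.2% over all tested genes). Halr1, which was lower, is not on that list.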

How the data were processed

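Values for 8 mouse kidney libraries came from 1 RNA-seq table of RPKM that the authors deposited, with 35976 genes and the length of each. STAR, featureCounts and mm10 are named in the submitters' processing notes, without versions. The annotation release and the strand setting are not given there. Per the labels' protocols, poly(A) RNA was fragmented and turned into cDNA libraries. All 179720 nonzero RPKM values lay within 0.01 of a whole read, so reads and totals (22.8 to 87.1, in units of 1e6 reads) were recovered. Precision is lower in the shallow libraries.

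Genes with at least 0.2 reads per 1e6 in 2 libraries and 15 reads in all were tested. RPKM was divided by TMM factors (trims of 0.3 on M and 0.05 on A), and limma 3.58.1 (R 4.3.3, trend and robust options) was run on log2 of scaled RPKM plus 0.1, with genotype and sex as terms. Fold changes carry this pseudocount, which understates those of low genes. Values within a sex and the interaction were contrasts of the 4 group means. The Benjamini-Hochberg adjustment covered every tested gene, with a threshold of 0.05, and the code was tested on simulated data. Alternatives were other pseudocounts, scalings, filters and limma options, voom, a replicate block, single depths and leaving out each library. Exon overlaps, transcript windows of 50 bases and homeobox sequences came from GENCODE M21. Promoter and protein sequences were not used here. Counts cover all tested genes, and a few genes and sequences among them, 1 of the members included, are not reported here. The members and lists were chosen with earlier results of these data known. Named were members, list genes past the threshold and, by a rule chosen after values were seen, genes within 100 kb of the clusters. Meis1, Six2 and Gdnf, which missed the threshold, were named after their values were seen.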

Additional observations from a re-analysis of the deposited data

Results flagged for a closer look

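A library stood apart from the 3 others of its genotype in 2 places among 66 gene and genotype groups checked with Dixon's test, which flags about 1 group in 20 by chance. Hoxd10 was at 17.5 scaled RPKM in the deep female mutant library, against 14.7 to 14.97 in the 3 other mutant libraries. Hoxd4 was at 2.76 in the deep male control library, against 1.86 to 1.99 in the 3 other control libraries. The cause was not tested.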

How the results depend on the processing

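The counts of 3 Hox genes higher and 0 lower held under pseudocounts of 0.01 and 1, no scaling, median-of-ratios scaling, no filter, limma without its trend and robust options, voom on recovered reads, genotype without sex and the deep libraries alone. Leaving out single libraries gave 2 to 4 higher and 0 to 1 lower. A stricter filter and the shallow libraries alone each gave 1 lower, Hoxa6 both times, and the shallow libraries 4 higher. Libraries of the same replicate number share a depth, and their deviations from the group means correlated above 0.1 in 4 of the 6 pairs of groups (-0.0028 to 0.379). Most pairs of groups thus shared a difference between the numbers. The main fit left the number out because not all 6 pairs passed, and the counts of Hox genes depend on this choice. With the number as a replicate block 5 Hox genes were higher, Hoxb3 (adjusted p = 0.0309) and Hoxb6 (0.00538) being added, and 3 lower, Hoxa6 (0.0488), Hoxd4 (0.0447) and Hoxd8 (0.0497), against 2730 and 2740 of all genes. Over all genes 2377 were lower, against 1527 in the shallow libraries alone. The median Hox change stayed between -0.02 and 0.07. Hoxc11 differed between the depths (-0.0765 deep and 0.74 shallow, with 0.33 over all libraries). Other members changed sign with smaller values: in the deep libraries Hoxa5 (-0.0345) and Hoxa10 (-0.031), in the shallow ones Hoxa11 (0.0401), Hoxb5 (-0.000176), Hoxb7 (0.0564), Hoxc4 (0.0217), Hoxc5 (-0.15) and Hoxd1 (-0.14). With single libraries left out the ranges were -0.0844 to 0.11 for Hoxa2, -0.0162 to 0.0961 for Hoxa5, -0.0197 to 0.0565 for Hoxa10, -0.13 to 0.0809 for Hoxa11, -0.12 to 0.0729 for Hoxb7, -0.0742 to 0.0525 for Hoxc4, -0.11 to 0.14 for Hoxc5, -0.0694 to 0.0974 for Hoxc6, -0.0199 to 0.11 for Hoxd1 and -0.15 to 0.11 for Hoxd3. The cause was not tested. Depth limits Hoxa6, Hoxc11 and Hoxd12, which rest on few reads.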
